A study of Mus musculus with 31 samples.

Results

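The 10 genes described here make serotonin's first enzyme, its cofactor tetrahydrobiopterin, and the enzymes that oxidise monoamines. They are Tph1, Gch1, Gchfr, Pts, Spr, Qdpr, Pcbd1, Maoa, Maob and Aldh2. They were taken as a named list and matched by GRCm39 symbol to the genes of the count files, where 10 of 10 were found among 55379 genes. All 10 passed the low-count filter of edgeR (filterByExpr by group), as did 14362 genes in all. Under a stricter filter of at least 1 CPM (counts scaled to a common library size) in at least 7 libraries, 9 of the 10 remained, and Tph1, which reached 1 CPM in 5 dams, was lost.

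RNA came from mammary glands of C57BL/6J dams on lactation day 10, with 1 library per dam and 31 dams in all. Dams ate a breeder diet with 4 mg/kg folic acid (FA) or an FA diet with 24 mg/kg, and from embryonic day 13 they were injected daily with saline or with 20 mg/kg fluoxetine, a selective serotonin reuptake inhibitor. By the labels, 8 dams had breeder diet + saline, 7 had breeder diet + fluoxetine, 8 had FA diet + saline and 8 had FA diet + fluoxetine. The study's methods place the group of 7 elsewhere, in FA diet + fluoxetine, and the labels were followed.

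Serotonin is made from tryptophan by a tryptophan hydroxylase and then by the aromatic amino acid decarboxylase Ddc. The hydroxylase needs tetrahydrobiopterin, which Gch1, Pts and Spr build in turn from GTP and which Pcbd1 and Qdpr regenerate, and Gchfr ties Gch1 to feedback by the cofactor. Maoa and Maob oxidise monoamines to aldehydes, which Aldh2 clears. In the lactating gland serotonin is known as a local signal in milk secretion, involution and calcium handling, and fluoxetine blocks its uptake by the transporter Slc6a4.

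Total counts ranged from 15412542 to 36000439 per library. Levels are given as CPM after TMM scaling. Dam 3 of FA diet + fluoxetine stood apart from the other 30 dams: its TMM factor was 3.04, against 0.716 to 1.57, and its 20 most abundant genes held 39.3% of counts, against 60.5% to 81.0%. A list of 10 milk-secreting epithelium markers summed to 55603 CPM in that library and to between 298677 and 886132 CPM in the others. The caseins, Wap, Lalba, Glycam1 and Elf5 were below their medians of the other dams in it. The keratins of the list were not lower as a set. Krt18 was at 149 CPM (at most 93.6 elsewhere) and Krt8 at 59.0 CPM (median 60.3 elsewhere). Results that rest on dam 3 of FA diet + fluoxetine are given with and without it. As these are whole glands, fewer cells of a type and less RNA per cell cannot be told apart.

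None of the 10 genes passed the FDR of 10% for fluoxetine, for FA or for their interaction. For fluoxetine, 0 of 10 were called by the edgeR quasi-likelihood test, beside 3 of 14362 genes (0.0209%), and 1 of 10 had an unadjusted p under 0.05, beside 1425 genes (9.92%). For FA, 0 of 10 and 0% of all genes were called, and 0 of 10 had an unadjusted p under 0.05, beside 729 genes (5.08%). For the interaction, 0 of 10 and 0% of all genes were called, and 1 of 10 had an unadjusted p under 0.05, beside 552 genes (3.84%). The likelihood ratio test of edgeR, DESeq2 and limma voom with sample weights also called 0 of the 10 in each comparison, with 1, 1 and 3 at an unadjusted p under 0.05 for fluoxetine, 0, 1 and 2 for FA, and 1, 0 and 0 for the interaction. The median log2 fold change of the 10 was -0.0701 for fluoxetine, where all genes tested had 0.019, and 0.179 for FA, where all genes had 0.0168.

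**Figure D1:**
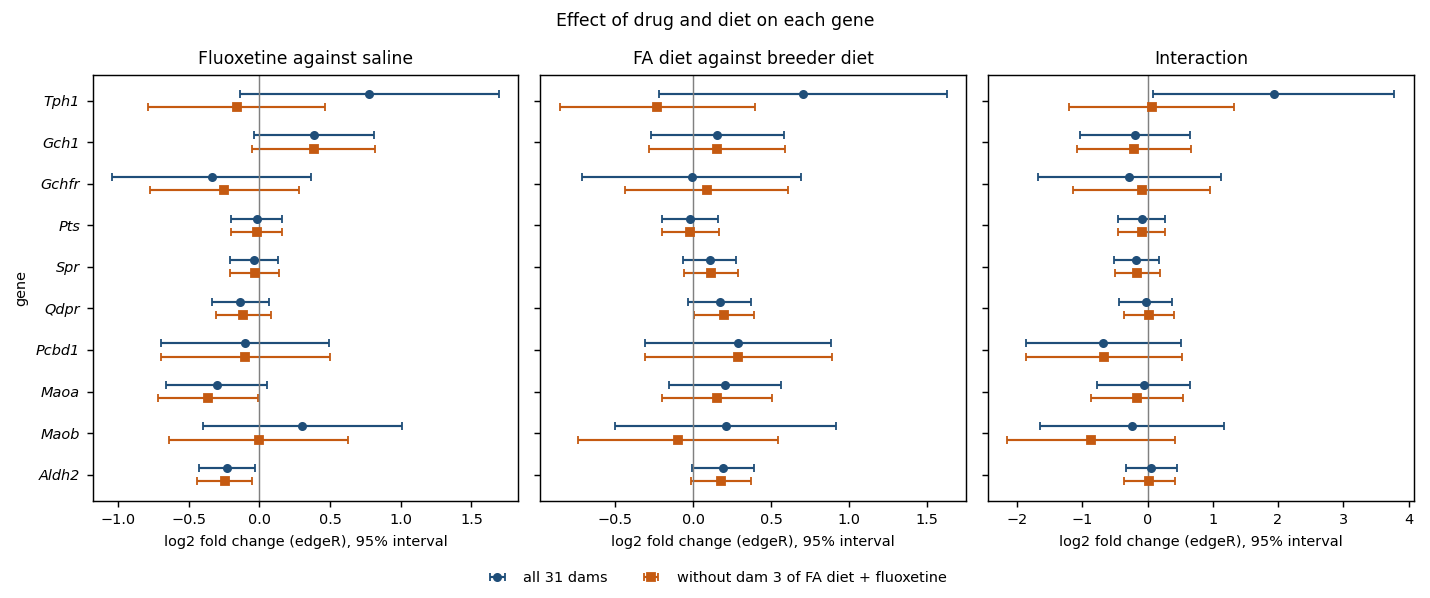
Log2 fold change of each of the 10 genes (x axis, edgeR quasi-likelihood fit, bars are 95% intervals) for fluoxetine against saline, FA diet against breeder diet, and the interaction (effect of fluoxetine on the FA diet minus that on the breeder diet). Circles use all 31 dams and squares leave out dam 3 of FA diet + fluoxetine; Tph1 moves from 0.78 to -0.16 for fluoxetine, while the intervals of Pts and Spr stay narrow around 0.

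Tph1 (ENSMUSG00000040046, GRCm39 chr7:46294065-46321965, minus strand) encodes the tryptophan hydroxylase of tissues outside the nervous system, the rate-limiting enzyme of serotonin synthesis. Its level ran from 0.242 to 1.65 CPM (median 0.638) in breeder diet + saline, from 0.293 to 1.46 CPM (median 0.572) in breeder diet + fluoxetine, from 0.240 to 1.14 CPM (median 0.585) in FA diet + saline, and from 0.263 to 12.5 CPM (median 0.663) in FA diet + fluoxetine. The 4 ranges overlapped and the medians lay close together, but dam 3 of FA diet + fluoxetine was at 12.5 CPM where no other dam passed 1.65. This library held 717 of the 1145 Tph1 counts of the series, or 62.6%. The next gene at higher coordinates, Saal1, 13567 bp away, was at 5.59 CPM in it and at most at 2.29 CPM elsewhere. The nearer gene at lower coordinates, Sergef, 4426 bp away, was at 3.09 CPM in it, inside the range of the others (1.01 to 4.18 CPM).

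The fitted effects on Tph1 followed that library. With all dams the log2 fold change was 0.78 ± 0.45 (SE) for fluoxetine (adjusted p = 0.571), 0.70 ± 0.45 for FA (adjusted p = 0.933) and 1.94 ± 0.91 for the interaction (adjusted p = 0.977). Within diets, fluoxetine gave -0.19 ± 0.66 on the breeder diet and 1.75 ± 0.63 on the FA diet (adjusted p = 0.428). Without dam 3 the values were -0.16 ± 0.31 for fluoxetine, -0.23 ± 0.31 for FA and 0.059 ± 0.62 for the interaction, all with adjusted p of at least 0.909. DESeq2, which replaced the 717 counts by 33 as an outlier, gave -0.16 for fluoxetine and -0.23 for FA.

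Markers of several other cell types were also highest in dam 3 of FA diet + fluoxetine. Mast cells are known to express Tph1. The 9 genes of a mast cell list summed to 71.5 CPM there and to between 0.496 and 6.18 CPM in the other dams, and Kit, which other cells also express, made up 52.7 CPM of it. Of the mast cell protease genes, Mcpt4 was at 8.62 CPM (at most 2.34 elsewhere), Cpa3 at 3.60 (at most 0.748), Cma1 at 3.43 (at most 1.56) and Tpsb2 at 2.80 (at most 1.92). Tpsab1 and Fcer1a were at 0 in that library, Ms4a2 was at 0 in all 31, and Hdc, at 0.297 CPM, was inside the range of the others. Fibroblast markers summed to 902 CPM (at most 288 elsewhere), macrophage markers to 165 (at most 58.0), white adipocyte markers to 565 (at most 442), platelet markers to 12.4 (at most 5.47) and neural and neuroendocrine markers to 9.12 (at most 5.71). The part of these cells in the Tph1 level was not tested.

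**Figure D2:**
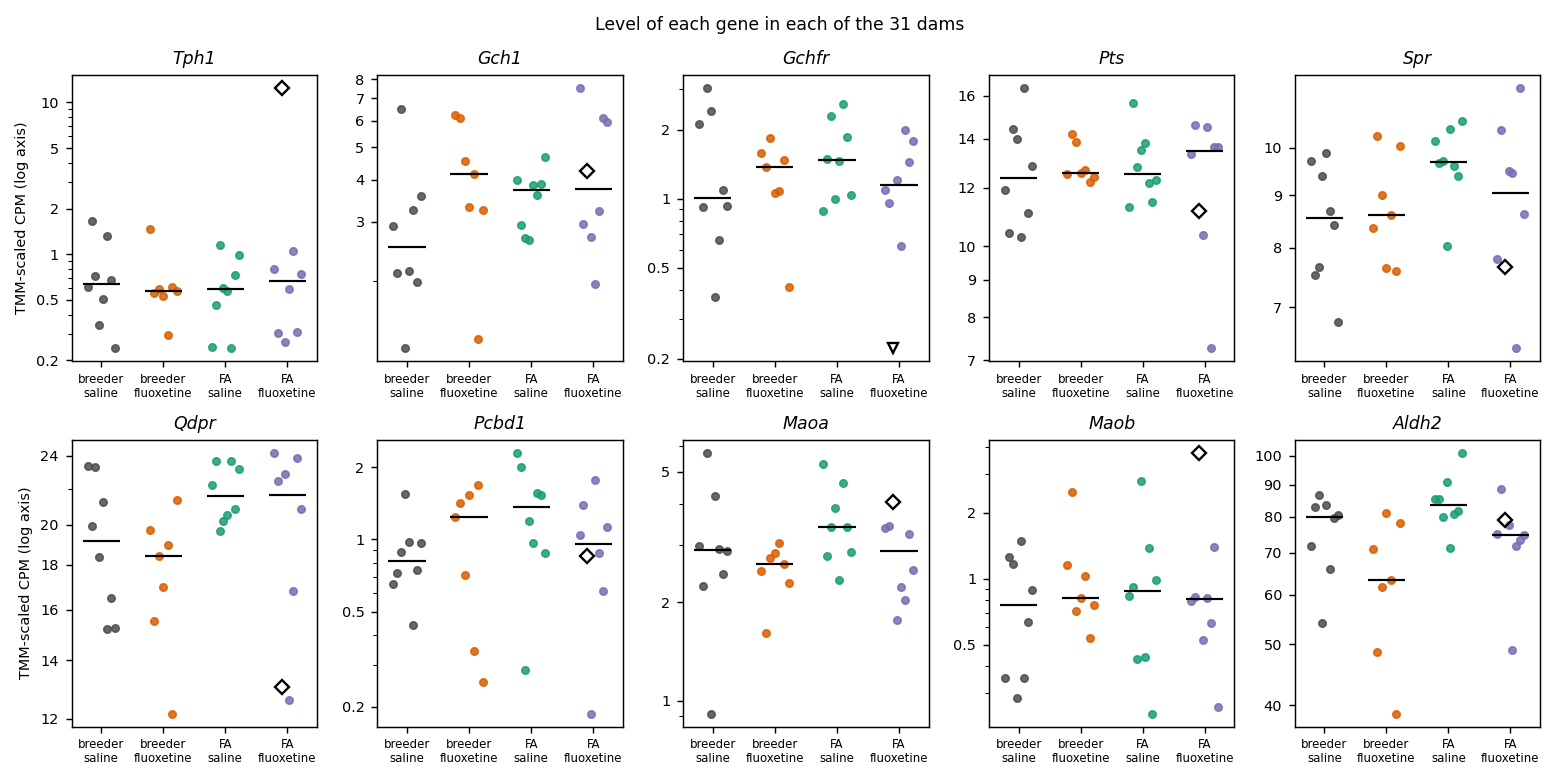
TMM-scaled CPM (log axis) of each of the 10 genes in each of the 31 dams, by group; points are dams, bars are group medians, the open diamond is dam 3 of FA diet + fluoxetine, and the open triangle marks that dam's 0 counts of Gchfr, drawn at the foot of its panel since a log axis has no 0. Tph1 and Maob are highest in that dam, and the 4 groups overlap for every gene.

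RefSeq places a pair of Tph1 start sites 5160 bp apart. Within 100 bp of them GENCODE begins 1 transcript at the upstream site and 5 at the downstream site. The 250 bases before each are shown for the gene that varied most among dams, and those of Spr for the one that varied least. They come from RefSeq's table for GRCm38.p6, and each was found unchanged in GRCm39 on the minus strand, is written 5′ to 3′, and has its CG pairs in capitals.
Tph1 upstream start, chr7:46321962-46322211: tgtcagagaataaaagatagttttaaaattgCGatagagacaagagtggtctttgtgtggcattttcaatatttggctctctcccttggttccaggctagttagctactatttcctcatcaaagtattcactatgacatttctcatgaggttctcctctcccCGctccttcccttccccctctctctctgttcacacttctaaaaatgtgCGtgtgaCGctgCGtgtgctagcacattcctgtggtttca
Tph1 downstream start, chr7:46316802-46317051: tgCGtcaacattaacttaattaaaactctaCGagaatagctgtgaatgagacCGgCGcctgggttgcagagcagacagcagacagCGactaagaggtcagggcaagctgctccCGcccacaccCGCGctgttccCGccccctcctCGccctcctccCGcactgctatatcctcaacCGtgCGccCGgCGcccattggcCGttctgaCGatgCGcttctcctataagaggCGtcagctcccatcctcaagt
Spr start, chr6:85114747-85114996: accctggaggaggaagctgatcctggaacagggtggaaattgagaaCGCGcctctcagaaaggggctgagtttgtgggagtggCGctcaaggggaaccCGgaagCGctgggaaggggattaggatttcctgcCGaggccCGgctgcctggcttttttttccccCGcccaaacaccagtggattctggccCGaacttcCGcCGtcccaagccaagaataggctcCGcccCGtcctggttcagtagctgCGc
These windows held 5, 19 and 14 CG pairs, where 32851 RefSeq windows of the same length had a median of 6 (quartiles 2 and 16). The letters GGGCGG, searched on both strands, occurred in the downstream Tph1 window and in that of Spr, and in 32.7% of all windows. CCAAT was in the downstream Tph1 window and in 33.8% of all windows, and TATAAA, held by 12.4% of windows, was in none of these. RefSeq windows were at hand for 8 of the 10 genes, and the others held from 6 CG pairs (Pcbd1) to 27 (Gchfr). The counts are per gene and do not say which start was used.

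The steps after Tph1 were hardly seen. Ddc, which turns its product into serotonin, had 8 counts in 3 of 31 dams, and the neuronal hydroxylase Tph2 had 1 count in 1 dam. The transporter Slc6a4, the target of fluoxetine, had 30 counts in 4 dams, 18 of them in dam 3 of FA diet + fluoxetine. Th, the hydroxylase of catecholamine synthesis, had 21 counts in 6 dams, and Dbh had 0, which allows up to 3 counts in the whole series. The vesicular transporter Slc18a2 was the exception, with 576 counts in 30 dams and a log2 fold change of -0.38 ± 0.31 for fluoxetine (adjusted p = 0.710). Messenger RNA of Ddc and Slc6a4 was thus near the limit of detection in these libraries, and no comparison between groups could be made for it.

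Of the enzymes that build tetrahydrobiopterin, Gch1 varied with dams and Pts and Spr hardly did. Gch1 (ENSMUSG00000037580, chr14:47391346-47426915, minus strand), GTP cyclohydrolase and the rate-limiting step, ran from 1.26 to 6.49 CPM (median 2.53) in breeder diet + saline, from 1.34 to 6.26 (median 4.15) in breeder diet + fluoxetine, from 2.64 to 4.67 (median 3.74) in FA diet + saline and from 1.96 to 7.54 (median 3.75) in FA diet + fluoxetine. The 16 saline dams had a mean of 3.25 ± 1.24 CPM (SD), and the 15 given fluoxetine one of 4.25 ± 1.80 CPM. On the log2 scale the drug effect was 0.39 ± 0.21 (95% interval -0.035 to 0.81, adjusted p = 0.541), or 0.38 when dam 3 of FA diet + fluoxetine was dropped. The groups overlapped, and the interval reached from no change to a 1.76-fold higher level. For FA the value was 0.15 ± 0.21.

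Gchfr (ENSMUSG00000046814, chr2:118998240-119002871, plus strand), the regulatory protein that binds Gch1, ran from 0.371 to 3.05 CPM (median 1.01) in breeder diet + saline, from 0.413 to 1.83 (median 1.38) in breeder diet + fluoxetine, from 0.879 to 2.58 (median 1.47) in FA diet + saline and from 0 to 2.0 (median 1.15) in FA diet + fluoxetine. The 0 was that of dam 3, where 3 counts, the limit that a count of 0 allows, would be 0.0524 CPM, and no other dam was under 0.371. The log2 fold change was -0.34 ± 0.35 for fluoxetine (adjusted p = 0.785) and -0.011 ± 0.34 for FA, and without dam 3 it was -0.25 ± 0.26 and 0.086 ± 0.26. Gchfr had 885 counts in the series, so counting error alone gave a CV of about 18.7% per library.

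Pts (ENSMUSG00000032067, chr9:50432917-50440024, minus strand), 6-pyruvoyltetrahydropterin synthase, and Spr (ENSMUSG00000033735, chr6:85107158-85114928, minus strand), sepiapterin reductase, were the steadiest of the 10. Pts ranged from 7.26 to 16.4 CPM over all dams, with group medians between 12.4 and 13.5. Spr ranged from 6.39 to 11.4 CPM, with group medians between 8.54 and 9.69. Their within-group CVs were 14.8% and 13.3%, and their fitted biological variation stood at the percentiles 3.73 and 1.80 of all genes tested, against 92.4 for Tph1. The log2 fold changes for fluoxetine were -0.019 (95% interval -0.20 to 0.16) for Pts and -0.038 (95% interval -0.21 to 0.13) for Spr, and for FA -0.024 (-0.20 to 0.16) and 0.10 (-0.067 to 0.28). These intervals leave room for changes of at most about 1.21-fold in either direction.

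The regenerating enzymes had unlike levels. Qdpr (ENSMUSG00000015806, chr5:45590463-45607587, minus strand), dihydropteridine reductase, averaged 18.4 ± 3.19 CPM (SD) in the 15 dams fed the breeder diet and 20.7 ± 3.61 CPM in the 16 fed the FA diet. The log2 fold change for FA was 0.17 ± 0.099 (adjusted p = 0.933), and 0.20 ± 0.094 without dam 3 of FA diet + fluoxetine, an unadjusted p under 0.05 (adjusted p = 0.702), and that dam was among the 3 lowest of all. For fluoxetine it was -0.14 ± 0.099 (adjusted p = 0.663). Pcbd1 (ENSMUSG00000020098, chr10:60925107-60930103, plus strand), pterin-4a-carbinolamine dehydratase, ranged from 0.188 to 2.30 CPM with 716 counts in the series, and its values were -0.10 ± 0.29 for fluoxetine and 0.28 ± 0.29 for FA. Under saline alone the FA diet went with a Pcbd1 difference of 0.62 ± 0.41 (adjusted p = 0.865) and under fluoxetine with -0.056 ± 0.42, and the interaction, -0.68 ± 0.59, did not pass (adjusted p = 0.977).

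Among the oxidases, Maoa (ENSMUSG00000025037, chrX:16485893-16554057, plus strand), which prefers serotonin as substrate, ran from 0.916 to 5.71 CPM (median 2.88) in breeder diet + saline, from 1.61 to 3.03 (median 2.62) in breeder diet + fluoxetine, from 2.33 to 5.28 (median 3.40) in FA diet + saline and from 1.77 to 4.05 (median 2.87) in FA diet + fluoxetine. The 16 saline dams averaged 3.30 ± 1.21 CPM (SD) and the 15 given fluoxetine 2.68 ± 0.666 CPM. The drug effect was -0.30 ± 0.18 on the log2 scale (adjusted p = 0.571), and -0.36 ± 0.17 without dam 3 of FA diet + fluoxetine, then with an unadjusted p under 0.05 (adjusted p = 0.531). Saline and fluoxetine dams overlapped over most of their range. For FA it was 0.20 ± 0.18 (adjusted p = 0.943).

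Maob (ENSMUSG00000040147, chrX:16574807-16683686, minus strand), the neighbour of Maoa, lies tail to tail with it at a distance of 20750 bp. Its level ran from 0.286 to 1.48 CPM (median 0.761) in breeder diet + saline, from 0.538 to 2.48 (median 0.816) in breeder diet + fluoxetine, from 0.243 to 2.79 (median 0.875) in FA diet + saline and from 0.260 to 3.76 (median 0.806) in FA diet + fluoxetine. The medians were alike and the upper ends of 3 groups were single dams. Dam 3 of FA diet + fluoxetine held 215 of its 805 counts. The log2 fold change was 0.30 ± 0.35 for fluoxetine (adjusted p = 0.807) and 0.21 ± 0.35 for FA (adjusted p = 0.989), and without dam 3 it was -0.0052 ± 0.31 and -0.10 ± 0.32.

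After subtracting group means, Spearman's rho of Maob with the summed level of 6 white adipocyte markers was 0.64 over 31 dams. Without dam 3 of FA diet + fluoxetine it was 0.60, and Maoa had 0.15 over 31 dams. The value of 0.64 was the largest, in either direction, between the genes described here and 14 marker lists. Next came Qdpr with neural and neuroendocrine markers (-0.55), Qdpr with myoepithelium (-0.53) and Pcbd1 with a list of brown adipocyte markers (0.52). That last list was nearly all Cidea. In dams other than dam 3 of FA diet + fluoxetine the list had a median sum of 1649 CPM and Cidea a median of 1646. The median of Ucp1 there was 0, so the sum cannot be read as a level of brown adipocytes. As the largest of many values, the 0.64 of Maob is given as a description only. The dams share the scaling of their libraries in these comparisons. The summed adipocyte level ran from 126 to 379 CPM in breeder diet + saline, from 71.7 to 309 in breeder diet + fluoxetine, from 140 to 442 in FA diet + saline and from 121 to 565 in FA diet + fluoxetine, and 6 of 6 markers were detected. The dams with the highest adipocyte sum in the last 3 groups, dam 5, dam 4 and dam 3, also had the highest Maob level there. Skeletal muscle markers were highest in that dam 5 and that dam 4 too, at 5569 and 3498 CPM, but were at 0.664 CPM in dam 3 of FA diet + fluoxetine, and their rho with Maob was 0.17. In breeder diet + saline the highest Maob (dam 6) and the highest adipocyte sum (dam 3) were in different dams. The part of these tissues in the Maob level was not tested.

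Aldh2 (ENSMUSG00000029455, chr5:121704090-121732089, minus strand), the mitochondrial aldehyde dehydrogenase, was the most abundant of the 10 and the only one with an unadjusted p under 0.05 for fluoxetine. Its level ran from 54.1 to 86.6 CPM (median 79.9) in breeder diet + saline, from 38.8 to 81.2 (median 63.4) in breeder diet + fluoxetine, from 71.4 to 101 (median 83.5) in FA diet + saline and from 48.9 to 88.5 (median 74.9) in FA diet + fluoxetine. The medians were lower with fluoxetine on each diet, and the ranges overlapped on each. The 16 saline dams averaged 80.1 ± 10.7 CPM (SD) and the 15 given fluoxetine 68.8 ± 13.9 CPM, which the fit gave as -0.23 ± 0.097 on the log2 scale (95% interval -0.43 to -0.030, adjusted p = 0.458). It was -0.26 ± 0.14 on the breeder diet, -0.20 ± 0.14 on the FA diet and -0.25 ± 0.096 without dam 3 of FA diet + fluoxetine. With FA it was 0.19 ± 0.097 (adjusted p = 0.933). An unnamed transcript unit, Gm42879, shares 332 exonic bases with Aldh2, but it had 78 counts in the series beside 53000 for Aldh2.

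The genes differed in level per length far more than any of them did between groups. Per kilobase of the union of exons, the median over 31 dams was 12.9 CPM for Aldh2, 2.92 for Qdpr, 1.97 for Spr, 1.79 for Pts, 1.58 for Gchfr, 1.16 for Pcbd1, 0.656 for Maoa, 0.495 for Gch1, 0.228 for Maob and 0.0948 for Tph1. Aldh2 was above Qdpr in 31 of 31 dams with no overlap, and Qdpr above Spr in 30 of 31. Spr and Pts could not be ordered (Spr was higher in 19 of 31 dams), nor Pts and Gchfr (Pts higher in 19). Gchfr was above Pcbd1 in 22, Pcbd1 above Maoa in 24, Maoa above Gch1 in 22, Gch1 above Maob in 27 and Maob above Tph1 in 26 of 31 dams, with overlapping ranges in each case.

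The order depends on the length used, since the union of the 39 annotated Pts transcripts covers the whole gene, 7108 bp, where its Ensembl canonical transcript has 1364 bp. Per kilobase of canonical transcript the medians were 19.2 CPM for Aldh2, 14.6 for Qdpr, 9.32 for Pts, 6.66 for Spr, 1.82 for Gchfr, 1.181 for Pcbd1, 1.178 for Gch1, 0.685 for Maoa, 0.333 for Maob and 0.139 for Tph1. Spr and Pts then stood apart from Gchfr in 31 of 31 dams. Aldh2 and Qdpr stayed first and second and Maob and Tph1 last under each of the 4 measures tried.

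**Figure D3:**
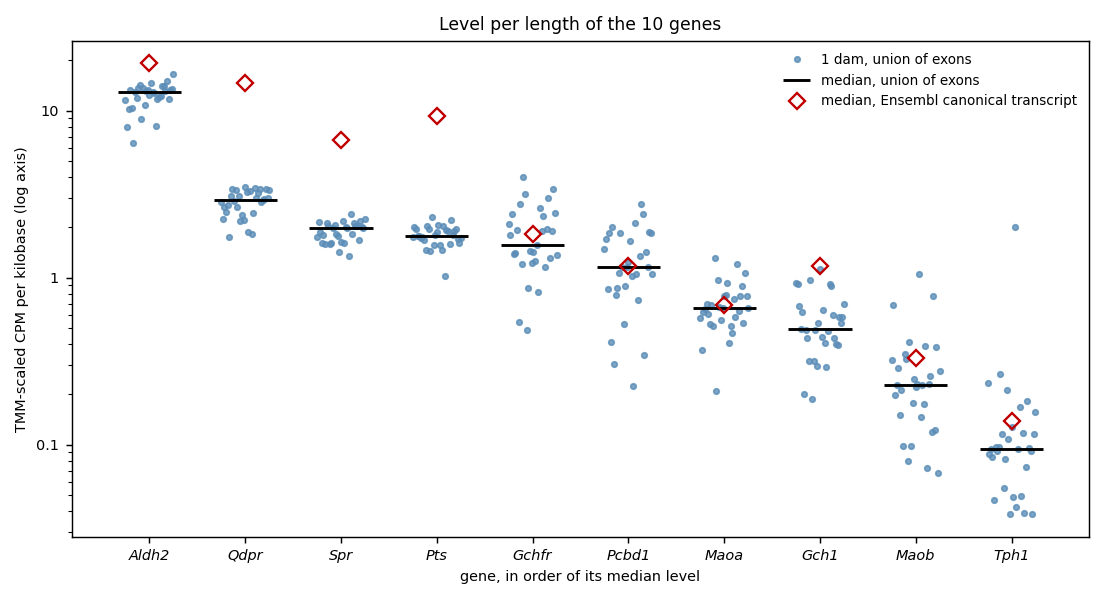
TMM-scaled CPM per kilobase (log axis) of the 10 genes in order of their median, with 1 point per dam and the median as a bar for the union of exons, and the median per kilobase of the Ensembl canonical transcript as an open diamond; the 0 of Gchfr in 1 dam cannot be drawn on a log axis. Aldh2 is highest at 12.9 and Tph1 lowest at 0.0948, and the diamonds of Qdpr, Spr and Pts lie well above their bars.

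Ratios of counts within a library do not depend on scaling between libraries, so 3 of them were compared by permutation within the other factor, 6 tests in all, with p-values adjusted over the 6. The log2 ratio of Gch1 to Gchfr, enzyme to feedback regulator, was 1.19 ± 0.888 (SD, n = 16) under saline and 2.15 ± 2.02 (SD, n = 15) under fluoxetine, a difference of 0.93 averaged over diets (two-sided permutation p = 0.0706, adjusted p = 0.322). Dam 3 of FA diet + fluoxetine was at 8.93, with its 0 of Gchfr, and without it the difference was 0.48 (permutation p = 0.138). The ratio of Maoa to Maob was 2.03 ± 0.845 under saline and 1.52 ± 0.880 under fluoxetine, a difference of -0.52 (permutation p = 0.107, adjusted p = 0.322) and of -0.41 without dam 3. The ratio of Tph1 to Maoa, synthesis to breakdown, was -2.32 ± 1.06 under saline and -1.90 ± 1.25 under fluoxetine (difference 0.42, permutation p = 0.334, adjusted p = 0.611). Dam 3 was the single library in which Tph1 had more counts than Maoa, at 1.63, and without it the difference was 0.17 (permutation p = 0.620). For FA the differences were 0.48, 0.23 and -0.17, with adjusted permutation p from 0.611 to 0.706. Without dam 3 of FA diet + fluoxetine they were 0.024, 0.34 and -0.41, with adjusted permutation p from 0.421 to 0.938. No ratio passed for drug or diet.

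**Figure D4:**
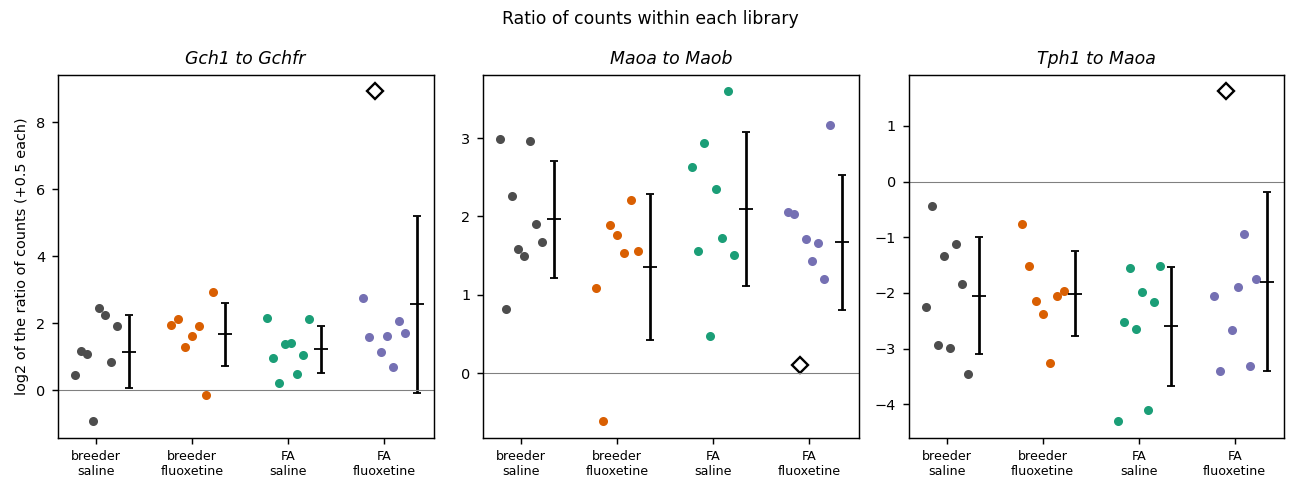
Log2 ratio of the counts of Gch1 to Gchfr, Maoa to Maob and Tph1 to Maoa (0.5 added to each count) in each library, by group; points are dams, the open diamond is dam 3 of FA diet + fluoxetine, and bars to the right are the mean ± SD of the group. That dam lies at 8.93 for Gch1 to Gchfr and at 1.63 for Tph1 to Maoa, and the groups overlap in all 3 panels.

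Around these genes, 76 symbols of 7 pathway lists were examined, of which 75 were matched and 38 passed the filter. None was called by the edgeR quasi-likelihood test in any comparison, and calls over these lists by other tools are not given here. For fluoxetine 18 were higher and 20 lower. Of all 14362 genes tested, 428 were lower at an unadjusted p under 0.05, as was 1 of the lower genes of the lists. This was Aldh7a1, an aldehyde dehydrogenase of lysine breakdown, which had 40.6 ± 6.38 CPM under saline and 31.2 ± 9.50 under fluoxetine, a change of -0.39 ± 0.13 (adjusted p = 0.342).

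For FA 28 of the 38 were higher and 10 lower. Those with an unadjusted p under 0.05 were Pcbd2 and Aoc3, beside 5.08% of all genes tested. Pcbd2, the close relative of Pcbd1, was at 0.30 ± 0.14. Aoc3, the vascular amine oxidase, was at 0.46 ± 0.20, and each had adjusted p = 0.933. Aoc3 was highest in dam 3 of FA diet + fluoxetine, at 28.2 CPM, with 1616 of its 6435 counts there. With each dam left out its value ran from 0.22 to 0.53, with an unadjusted edgeR quasi-likelihood p of up to 0.146. The count of higher genes stands beside a median log2 fold change of 0.118 for the 38 and of 0.0168 for all genes tested. For the interaction 19 were higher and 19 lower, and Aldh1a3, Slc7a5 and Tgm1 had an unadjusted p under 0.05 (adjusted p = 0.977 each). Of all genes tested, 3.84% had such a p for the interaction. Aldh1a3, a retinal dehydrogenase, held 1088 of its 1329 counts in dam 3 of FA diet + fluoxetine, and its value of 3.82 turned to -0.22 without that library. Slc7a5, the large neutral amino acid carrier that brings tryptophan into cells, was at -0.77 ± 0.35, and Tgm1, a transglutaminase, at -0.59 ± 0.29.

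Of 14 serotonin receptors, 1 passed the filter, Htr1d, with 604 counts in 30 dams and 98 of them in dam 3 of FA diet + fluoxetine. Htr3a had 107 of its 109 counts, Htr1b 22 of 22 and Htr2a 19 of 29 in that library. The receptor Htr7 had 17 counts in 7 dams, and Htr2b had 4 counts in 3. These are raw counts, and after TMM scaling Htr1d was highest in dam 5 of FA diet + saline, at 1.98 CPM. For Htr3a, Htr1b and Htr2a, most of the detected RNA lay in a single dam.

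The 10 genes varied largely apart from each other. After subtracting group means, the closest pairs over 31 dams were Qdpr with Aldh2 (Spearman's rho 0.43, and 0.53 without dam 3 of FA diet + fluoxetine) and Maob with Aldh2 (0.43, and 0.38 without it). Gch1 and its regulator Gchfr had a rho of 0.15, and Maoa and Maob one of 0.38. The lowest rho was that of Tph1 with Spr, at -0.43, or -0.32 without dam 3. Among 11151 or 11152 other genes with a median of at least 1 CPM, those with the most similar pattern were Ctsd (0.84), Abcd3 (0.84) and 9530068E07Rik (0.82) for Qdpr, Tigd2 (0.84), Gda (0.78) and Tbc1d12 (0.78) for Maoa, Cadm4 (0.81), Pon2 (0.80) and A630023A22Rik (0.79) for Gch1, Rab5c (0.78), Arl5a (0.78) and Mat2a (0.77) for Aldh2, and Akt2 (0.77), Sqstm1 (0.74) and Egln1 (0.74) for Maob. The closest genes of the other 5 had a rho of 0.60 to 0.70: Aspn, Ltbr and Gm9385 for Pcbd1, Pak1, I830077J02Rik and Samd4b for Tph1, Kdm4c and Zfp101 for Pts, Tmem82, Cops4 and Bad for Gchfr, and Gskip, Lmln and Gon7 for Spr. As these are the largest of all such values, which share library scaling, they are given as a description only.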

How the data were processed

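Raw counts per Ensembl gene were deposited by the authors, who sequenced polyadenylated RNA in paired ends, checked reads with FastQC 0.11.7, trimmed them with Trim Galore 0.4.4, used Hisat2 for mapping to GRCm39 and htseq-count (intersection-nonempty) for counting. Which annotation release and strand option were used is not given in the sources used here, so reads of overlapping or antisense genes cannot be told apart. Symbols and lengths came from GENCODE vM39. The 10 genes, the pathway lists and the marker lists were chosen with earlier results of these data known.

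In R 4.3.3, edgeR 4.0.16 was run with filterByExpr, TMM and robust quasi-likelihood fits of 4 groups, and fluoxetine, FA and interaction contrasts had Benjamini-Hochberg adjusted p-values over 14362 genes (FDR of 10%). Log2 CPM carried a prior count of 2. Ratios were tested with 100000 resamples (two-sided, pseudocount 0.5). Named are the 10 genes, the synthesis, uptake and storage steps Ddc, Tph2, Th, Slc6a4 and Slc18a2, pathway genes with an unadjusted p of at most 0.05, genes next to or overlapping the 10, and the 3 genes most like each by Spearman's rho, apart from a few items left unreported. Dbh, the receptors and the single marker genes were named after their values were seen. No pair of libraries within a group agreed within sampling noise (chi-square over degrees of freedom at least 15.8), so each counted as 1 dam. P-values measure the spread between these dams. Counting limits cover counting error only. The edgeR quasi-likelihood fit and the ratio test were tested on simulated data. Alternatives were the likelihood ratio test, DESeq2 1.42.0, other filters and scalings, other models and each dam left out. limma 3.58.1 voom with sample weights, the canonical transcript length and the FA diet without dam 3 were added after seeing the data.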

Additional observations from a re-analysis of the deposited data

Results flagged for a closer look

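In groups of 7 or 8 dams, single dams far from the rest of their group were looked for by Dixon's criterion. The 52 sets of values were the CPM of the 10 genes and the 3 log2 ratios in 4 groups. For independent normal values the criterion picks about 1 in 20 by chance, or 2.6 here, and 9 were found. The CPM were not log-transformed and the sets share genes and dams, so 2.6 is a nominal figure only. Tph1 was at 12.5 CPM in dam 3 of FA diet + fluoxetine, where the next dam had 1.05, and at 1.46 CPM in dam 2 of breeder diet + fluoxetine, where the next had 0.605. Gch1 was at 6.49 CPM in dam 3 of breeder diet + saline (next 3.58). Maob was at 2.48 CPM in dam 5 of breeder diet + fluoxetine (next 1.16), at 2.79 in dam 4 of FA diet + saline (next 1.38) and at 3.76 in dam 3 of FA diet + fluoxetine (next 1.40). Aldh2 was low in dam 5 of FA diet + fluoxetine, at 48.9 CPM (next 71.9). The log2 ratio of Gch1 to Gchfr was 8.93 in dam 3 of FA diet + fluoxetine (next 2.76), and that of Maoa to Maob was -0.61 in dam 5 of breeder diet + fluoxetine (next 1.09).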

How the results depend on the processing

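The count of 0 of the 10 genes past the FDR held for each contrast under each alternative and with each dam left out. The number of all genes called for fluoxetine was 3 and moved to 45 with the likelihood ratio test, 70 with DESeq2, 52 with limma voom, 1 with every gene of at least 1 count, 0 within either diet (also for the FA diet without dam 3 of FA diet + fluoxetine), and from 0 to 19 with each dam left out (0 without breeder diet + fluoxetine dam 8, 1 without FA diet + saline dam 2, 5 without dam 3 of either saline group, 7 and 11 without FA diet + fluoxetine dams 10 and 2, 16 without breeder diet + fluoxetine dam 7 and 19 without breeder diet + saline dam 4).

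These log2 fold changes turned sign, none past the FDR. For fluoxetine, Tph1 was -0.16 with DESeq2, which replaced that dam's count, -0.038 with limma voom, -0.19 within the breeder diet and -0.13 on the FA diet without dam 3, where Maob was -0.44. Within the breeder diet Pts was 0.028, Spr 0.049 and Pcbd1 0.24, and with limma voom Pts was 0.040. For FA, Tph1 was -0.23 with DESeq2, -0.23 with limma voom and -0.27 under saline alone. Gchfr was 0.18 with limma voom and 0.13 under saline alone, Pts 0.016 and 0.023, Maob -0.30 with limma voom, and Pcbd1 -0.056 under fluoxetine alone. For the interaction, Aldh1a3 was -0.059 with DESeq2 (count of dam 3 replaced) and -0.84 with limma voom, which gave -0.090 for Tph1 and 0.046 for Qdpr. The ratio of Gch1 to Gchfr for FA was -0.077 as a difference of medians. The causes were not tested.

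With each dam left out, values for fluoxetine ran from -0.16 to 0.90 for Tph1, from -0.039 to 0.022 for Pts and from -0.0052 to 0.52 for Maob. For FA they ran from -0.23 to 0.87 for Tph1, from -0.097 to 0.11 for Gchfr, from -0.046 to 0.017 for Pts and from -0.10 to 0.38 for Maob. For the interaction they ran from -0.26 to 0.077 for Maoa, from -0.87 to 0.18 for Maob, from -0.034 to 0.13 for Aldh2, from -0.10 to 0.029 for Qdpr and from -0.22 to 4.80 for Aldh1a3.

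Animal numbers recur across groups, and the labels do not say whether they pair the dams. Same-number deviations had a median correlation of 0.079 over 28 pairs (lowest -0.22, highest 0.43, 12 over 0.1), and other numbers one of -0.0070. Whether same-number dams share an origin was not tested, and the main fits took the dams as unpaired. With a replicate block on the number, 0 genes were called for fluoxetine, Gchfr was 0.0036 and Pts 0.035, and for FA Tph1 was -0.12, Gch1 -0.24 and Maob -0.19. Gch1 for fluoxetine was 0.81 with the block (adjusted p = 0.466) and 0.39 without, and its interaction was -1.17 with and -0.19 without, both with an unadjusted p under 0.05 in the block and neither past the FDR. Interactions of Tph1, Gchfr and Maob were 0.42, -0.93 and -0.89 with the block, beside 1.94, -0.28 and -0.24 without. In the block the ratio differences were 1.21, -0.35 and 0.57 for fluoxetine and 0.47, 0.23 and -0.27 for FA. Tph1, Pcbd1, Maob and Gchfr, with medians of 12 to 23 counts per library, are limited by depth as well as by the spread between dams.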
